A study of Salmo salar with 79 samples.

Results

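LINCR, named E3 ubiquitin-protein ligase LINCR in the study's gene list, was followed in the skin of Atlantic salmon through 57 days of wound healing at high fish density and at control density. It was read by 1 probe of a custom one-colour oligonucleotide array, Ssa#S47729315, of 14841 probes once the 536 control spots were set aside. The probe was chosen because its difference between the densities at 3 days post wounding (dpw) ranked among the highest, so every value that rests on the 3 dpw fish is given as a description without a test. RefSeq (Ssal_v3.1) holds a salmon gene with the symbol lincr and genes for other neuralized proteins (neurl1b, neurl2 and neurl4), and the probe was matched to LINCR by name only.

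LINCR is a RING-type E3 ubiquitin ligase with a neuralized domain, the last enzyme of the cascade that attaches ubiquitin to a protein chosen by the ligase. Its mammalian counterpart is NEURL3. In mouse it was described as a gene that lipopolysaccharide induces in lung epithelium, and neuralized proteins of fly and mouse are known for ubiquitinating ligands of the Notch receptor. Ubiquitin chains also carry the signal from Toll-like and cytokine receptors to NF-kappa-B, the transcription factor that drives many inflammatory genes of injured skin.

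Post-smolts were stocked at 100 kg/m3 (high fish density, HFD) or at 20 kg/m3 (control), and a biopsy punch removed round pieces of skin. The paper states that biomass was not adjusted. Density therefore rose over the study in the HFD tank and fell in the control tank, and the contrast was not constant over the days. Each density was kept in 1 tank, so that tank and density cannot be told apart. Wounded skin came from 5 fish per density at each of 7 days (1, 3, 7 and 14 dpw, then 36, 43 and 57). Intact skin (0 dpw) came from 4 fish per density that shared the same stocking and were labelled as taken before wounding. No array held unwounded skin of a later day, so the wound and elapsed time cannot be told apart. The 79 arrays stood for 78 fish, because control fish 3 at 57 dpw was hybridised a second time and its arrays were averaged. A sample of a wound holds epidermis, dermis, blood cells and some muscle, and in such bulk RNA fewer cells of a type and less RNA per cell cannot be told apart.

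The level given below is the log2 of the processed signal minus the log2 of the array's 75th percentile, so 0 means a signal equal to that percentile. The percentile lay between 253.7 and 1065 intensity units, and 60.1% to 94.5% of an array's probes stood well above background. LINCR was well above background on all 79 arrays, with processed signals from 16.6 to 7550 intensity units. The arrays of 36, 43 and 57 dpw were scanned in another campaign than those of 0 to 14 dpw, so at those late days the effect of the wound and that of the campaign cannot be told apart. The repeat arrays of control fish 3 at 57 dpw read LINCR at -2.51 and -3.36, which gives a technical difference of 0.85 on the log2 scale.

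LINCR was low in intact skin. The 4 HFD fish had levels of -4.04, -2.90, -2.19 and -2.20 (mean -2.83 ± 0.87, SD, n = 4). Control fish 5 to 8 had levels of -3.08, -3.57, -3.64 and -3.43 (mean -3.43 ± 0.25, SD, n = 4). The groups overlapped, since HFD fish 1 was the lowest of the 8 and the other HFD fish lay above every control fish.

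One day after wounding the level was high in both tanks. The 5 HFD fish had levels of 1.19, 2.14, 0.31, 0.77 and 1.87 (mean 1.26 ± 0.76, SD, n = 5). The control fish had levels of 1.12, 2.59, 1.62, -0.54 and 1.62 (mean 1.28 ± 1.15, SD, n = 5). All wounded fish of either density lay above all intact fish of that density, and fish 4 of the control was the one wounded fish of 1 dpw below 0.

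At 3 dpw the densities parted. The HFD fish stood at 2.92, 1.61, 1.04, 2.49 and 2.96 (mean 2.20 ± 0.85, SD, n = 5), which were processed signals of 1734 to 7550 units. The control fish stood at -2.72, -2.54, 0.52, -1.84 and 0.93 (mean -1.13 ± 1.73, SD, n = 5), or 130.8 to 1363 units. Every HFD fish lay above every control fish, while the control fish themselves held 2 above the percentile and 3 well below it.

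**Figure D1:**
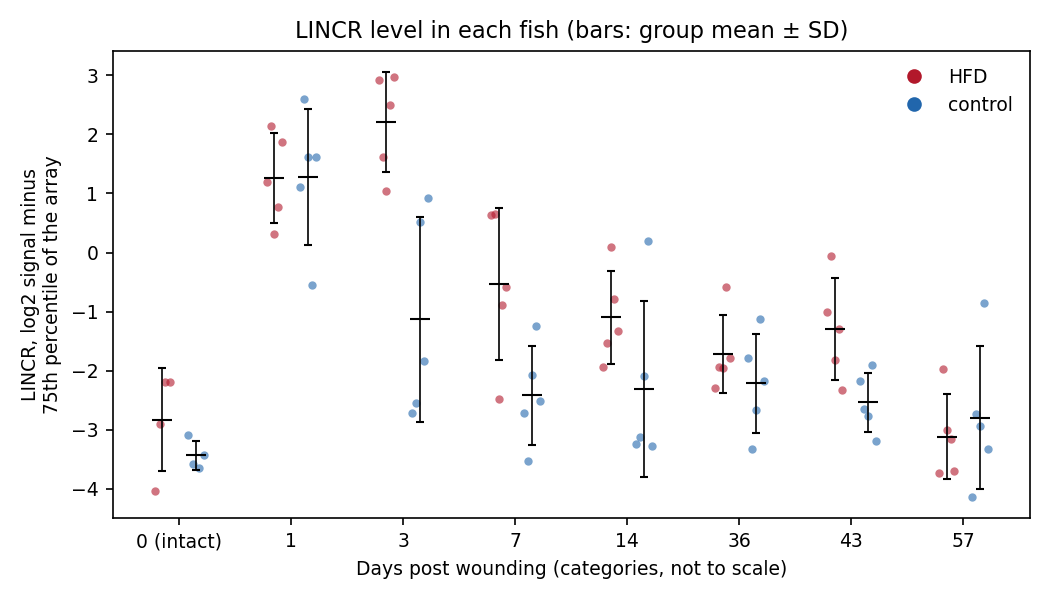
Points show the LINCR level of each fish (log2 processed signal minus the 75th percentile of its array) by days post wounding, HFD in red and control in blue, with the group mean ± SD as black bars (n = 5, and 4 for intact skin). Both groups rose from means of -2.83 and -3.43 to 1.26 and 1.28 at 1 dpw, and at 3 dpw the HFD mean of 2.20 stood apart from the control mean of -1.13.

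At 7 dpw the HFD fish were spread from the percentile down to the intact range, with levels of 0.63, 0.65, -2.47, -0.88 and -0.58 (mean -0.53 ± 1.29, SD, n = 5). The control fish were at -2.71, -3.52, -2.07, -1.25 and -2.50 (mean -2.41 ± 0.84, SD, n = 5). HFD fish 3 fell inside the control range and the other 4 HFD fish lay above all control fish.

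The 14 dpw fish repeated this order with more overlap. HFD levels were -1.93, -1.54, 0.09, -0.78 and -1.32 (mean -1.10 ± 0.78, SD, n = 5). Control levels were -3.24, -3.12, -2.09, 0.20 and -3.28 (mean -2.30 ± 1.48, SD, n = 5). The highest of the 10 fish was control fish 4, and the other 4 control fish lay below all HFD fish.

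From 36 dpw on the levels were low in both tanks. At 36 dpw the HFD fish had -2.29, -1.94, -1.95, -0.58 and -1.79 (mean -1.71 ± 0.66, SD, n = 5). The control fish of that day had -1.78, -3.32, -2.67, -1.13 and -2.17 (mean -2.21 ± 0.83, SD, n = 5), so the ranges overlapped over most of their width.

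At 43 dpw the HFD levels were -1.0, -0.05, -1.82, -1.29 and -2.32 (mean -1.30 ± 0.86, SD, n = 5). The control levels were -2.17, -2.64, -2.76, -1.91 and -3.19 (mean -2.53 ± 0.50, SD, n = 5). HFD fish 5 lay inside the control range and 4 HFD fish lay above it.

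By 57 dpw the HFD fish were at -3.73, -1.98, -3.0, -3.16 and -3.69 (mean -3.11 ± 0.71, SD, n = 5). The control fish were at -4.13, -2.73, -2.94, -0.86 and -3.32 (mean -2.80 ± 1.21, SD, n = 5). Control fish 4 and HFD fish 2 lay above all 8 intact fish and control fish 1 lay below them, while the other fish were within the range of intact skin.

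Ordered by their means, the 16 groups ran from HFD at 3 dpw through control at 1 dpw, HFD at 1 dpw, HFD at 7 dpw, HFD at 14 dpw and control at 3 dpw down to control intact skin. The step from HFD at 1 dpw to HFD at 7 dpw, 1.79 on the log2 scale, was the largest of the 15 and the only one over the larger SD of its pair. The fish of all 15 neighbouring pairs overlapped, so no neighbours in this order differed beyond their spread in every fish.

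The first question was whether stocking density changed the LINCR level at a given day of healing. At 3 dpw the HFD mean was 3.34 above the control mean on the log2 scale, a ratio of 10.1, and this difference ranked 7 of 12838 tested probes. At that day 3.39% of the tested probes passed the study's criteria (log2 fold change beyond 0.8 and unadjusted p under 0.05) in the HFD direction, and in 2.9% of the probes every HFD fish lay above every control fish. Both values belong to the contrast that chose the probe and are given for scale only. On the slide that held a fish of each density from 3 dpw, HFD fish 1 was 2.00 above control fish 5.

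The ranking that chose the probe used the 3 dpw contrast, not the other days. LINCR was, however, named from the study's list, which rests on differences between HFD and control on these same arrays. The tests of the other days are therefore not independent of how the probe was selected. At 7 dpw LINCR was 1.88 higher in HFD fish on the log2 scale (SE 0.61, 95% interval 0.51 to 3.25), a fold of 3.68 that met the study's criteria by limma, as did 1.57% of the tested probes in that direction. Its adjusted p was 0.17 after Benjamini-Hochberg correction over 13065 probes, and an exact two-sided permutation test of LINCR alone gave p = 0.0317, where 5 against 5 fish allow 0.00794 at the least. The difference ranked 15 from the top among the probes of that day. On the single shared slide HFD fish 1 was 3.14 above control fish 5. With slide as a block the limma difference rests on this pair alone, and the call was lost.

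At 43 dpw the difference was 1.24 (SE 0.41, 95% interval 0.33 to 2.14), a fold of 2.36, and it met the study's criteria beside 3.25% of the tested probes in that direction. The adjusted limma p was 0.574, and the exact permutation test gave p = 0.0317. On the 2 slides that held both densities HFD fish were 2.19 and 0.60 higher, and the call was lost with slide as a block, with normexp background correction and with all groups in 1 fit.

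The remaining days gave no call. The difference was 1.21 at 14 dpw (SE 0.67, limma adjusted p = 0.375), with 2.24% of probes called higher in HFD, and leaving out control fish 4 moved it to 1.84 and past the criteria. It was 0.60 in intact skin (SE 0.40, adjusted p = 0.692), with 1.49% of probes called higher, and 1.01 without HFD fish 1, again past the criteria. No slide held intact fish of both densities, so slide and density cannot be told apart in intact skin, the base of the wound responses below. The HFD minus control difference was -0.02 at 1 dpw (95% interval -1.22 to 1.18), 0.50 at 36 dpw (-0.45 to 1.45) and -0.32 at 57 dpw (-1.55 to 0.92), days at which 0.65%, 0.862% and 1.57% of the probes were called higher in HFD. In the opposite direction, 0.32% of the probes were called in intact skin. On the first day after wounding 2.84% were called lower in HFD, and 2.03% were at 14 dpw. The late days had lower shares, namely 0.332% (36 dpw), 0.534% (43 dpw) and 0.312% (57 dpw). The interval at 1 dpw leaves room for more than a doubling in either direction.

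**Figure D2:**
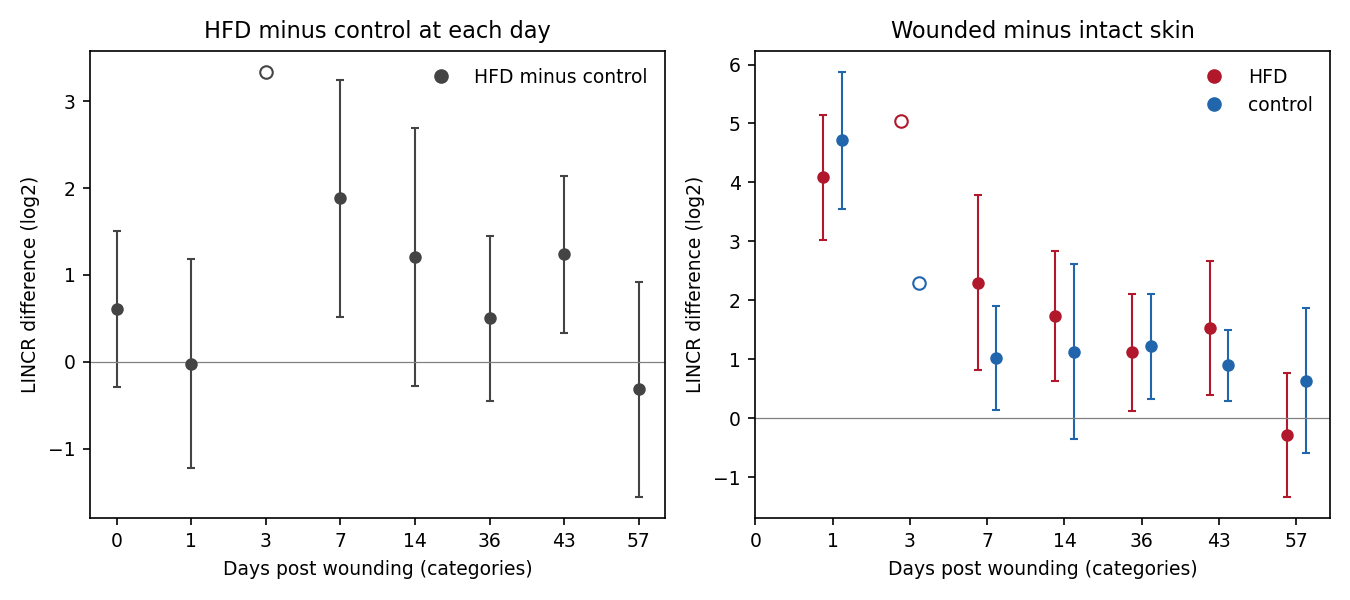
Left, HFD minus control difference of LINCR at each day. Right, wounded minus intact skin in HFD (red) and control (blue). Vertical axes are log2 differences, bars are 95% intervals from limma, and open circles at 3 dpw carry no interval because that day chose the probe. The interval lies above 0 at 7 and 43 dpw on the left, and the wound response of both densities lies above 3 at 1 dpw on the right.

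Each wounded group was then set against intact skin of its own density. The intact fish were taken before wounding, so each difference holds the wound together with elapsed time, growth and time at that density. The wound response below means this whole difference. At 1 dpw LINCR rose by 4.09 in HFD (SE 0.48, adjusted p = 0.000307) and by 4.71 in control skin (SE 0.52, adjusted p = 0.000122), folds of 17 and 26.2. Over the alternative ways of processing, the rise ran from 2.98 to 4.39 in HFD and from 3.17 to 4.94 in control. The folds rest on intact signals near the floor, so their size is uncertain. At this day 12.1% of the probes in HFD and 18.6% in control were called higher in the wound, and LINCR ranked 78 and 82 from the top of the tested probes. All wounded fish above all intact fish was found for 11.4% of the probes in HFD and 17.1% in control. At 3 dpw, as a description, the differences were 5.03 in HFD and 2.30 in control, at a day when 19.9% and 21.6% of the probes were called higher.

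The response then declined. At 7 dpw LINCR was 2.30 above intact skin in HFD (SE 0.66, adjusted p = 0.0185, with 18.1% of probes called higher) and 1.02 in control (SE 0.39, adjusted p = 0.0575, with 19.3%). At 14 dpw it was 1.73 above in HFD (SE 0.49, adjusted p = 0.0179, with 17.7%) and 1.13 in control (SE 0.66, adjusted p = 0.202, with 15.8%). The 14 dpw call in HFD came with no overlap between wounded and intact fish, as in 16% of the probes, but on the slide that held both kinds HFD fish 1 was only 0.26 above the mean of 2 intact fish. The 7 dpw call in HFD was lost without intact fish 1 of HFD, where the difference was 1.89.

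At the late days, read in the other scan campaign, LINCR in HFD was 1.12 above intact skin at 36 dpw (adjusted p = 0.0639, with 15.4% of probes called higher), 1.53 at 43 dpw (adjusted p = 0.0409, with 11.5%) and -0.28 at 57 dpw (adjusted p = 0.658, with 12.3%). In control it was 1.22 at 36 dpw (adjusted p = 0.0405, with 13.1%), 0.90 at 43 dpw (adjusted p = 0.0358, with 9.19%) and 0.64 at 57 dpw (adjusted p = 0.387, with 11%). The 3 late calls lay close to the threshold, and each was lost in 6 or 7 of the 9 fits that left out 1 fish.

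Whether the wound response, as the whole difference from intact skin, differed between the densities was tested as an interaction. At 7 dpw the HFD response exceeded the control response by 1.28 on the log2 scale (95% interval -0.45 to 3.01, limma adjusted p = 0.493), at a day when 0.0738% of the probes were called. The difference between responses was -0.62 at 1 dpw, 0.61 at 14 dpw, -0.10 at 36 dpw, 0.63 at 43 dpw (with 0.00761% of probes called) and -0.92 at 57 dpw. LINCR was called at none of the tested days. Its lowest limma adjusted p was the 0.493 of 7 dpw, and the lowest of the other days was 0.792, at 1 dpw.

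Myeloperoxidase and cathelicidin, a granule enzyme and an antimicrobial peptide of neutrophils, were the 2 markers taken for these cells from the study's named probes. They do not cover other leukocytes, and both were well above background in every fish. Their summed linear level was 0.582 to 8.88 in intact HFD skin and 0.870 to 1.85 in intact control skin. It was 11.7 to 22.6 in HFD and 11.4 to 26.3 in control at 1 dpw, and 41.2 to 55.5 in HFD against 30.04 to 45.8 in control at 3 dpw. At 7 dpw it was 46.5 to 73.1 in HFD and 24.02 to 50.9 in control, but the 2 markers did not move alike. Cathelicidin rose over intact HFD skin by 3.63 at 1 dpw, 5.43 at 3 dpw and 5.74 at 7 dpw on the log2 scale, whereas myeloperoxidase was 3.04, 2.99 and 2.68 above it. Myeloperoxidase was 1.92 higher in HFD than in control at 3 dpw, which met the study's criteria, and stood 0.71 above intact skin in control (limma adjusted p = 0.051). At 7 dpw its HFD minus control difference was -0.49 and that of cathelicidin 0.82, of which the latter met the criteria. The part of these cells in the LINCR differences was not tested.

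Markers of the other tissues also moved with the wound. Like the neutrophil markers, they were named from the study's list, which rests on differences between HFD and control on these same arrays. Counts of marker probes called between the densities are therefore not independent evidence. The summed level of 6 epidermal markers (keratins and periplakin, structural proteins of the epithelium) was 126.8 to 222.0 in HFD and 94.4 to 211.3 in control at 3 dpw, against 39.3 to 72.9 and 30.5 to 60.7 in intact skin. Its members went both ways in each density, with 4 called higher and 2 lower against intact skin. Of all probes, 19.9% were called higher and 33.4% lower in HFD, and 21.6% and 27.2% in control. In HFD type I keratin S8 was 3.67 higher, while type II keratin E2 and the probe of keratin type I cytoskeletal 20 had differences of -1.10 and -2.15. None of the 6 met the study's criteria between the densities at 3 dpw, where 3.39% of all probes did upwards and 2.99% downwards. At 7 dpw keratin 18 was called higher in HFD (0.97) and keratin type I cytoskeletal 20 lower (-1.25), beside 1.57% and 2.76% of all probes. At 43 dpw none of the 6 was called, while their median difference was 0.72, beside 0.03 over all tested probes. The summed level of that day was 23.8 to 63.7 in HFD and 3.17 to 37.3 in control. The 5 probes of type I collagen, the main fibre of the dermis, summed to 1.63 to 3.80 in HFD and 2.69 to 7.21 in control at 3 dpw, against 5.04 to 27.6 and 14.9 to 21.1 in intact skin. The 3 hemoglobin probes summed to 6.39 to 25.9 in HFD and 2.40 to 11.3 in control at 3 dpw, against 0.602 to 3.66 and 0.862 to 7.45 in intact skin. Their HFD minus control differences at 3 dpw were -0.17, 0.15 and 0.86. None of these 3 probes or of the 5 collagen probes met the study's criteria between the densities at that day. Of the 2 muscle probes, myosin light polypeptide 4 was 4.29 higher in HFD than in control at 3 dpw, past the study's criteria, and fast myotomal muscle actin 2 differed by 0.50 without a call. In control fish of that day 1 of the 2 was not well above background in every fish. At 14 dpw 3 of 3 hemoglobin probes, 4 of 5 collagen probes and 1 of 2 muscle probes were called lower in HFD. Of all probes, 2.03% were called lower. On the same day 2 of 6 epidermal probes were called higher in HFD, beside 2.24% of all probes. The part of tissue composition in the LINCR level was not tested.

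The probes whose 16 group means followed LINCR most closely were sought among 12545 probes well above background in at least 39 fish. Their median Pearson r to LINCR was 0.01, and 65 probes reached an r over 0.9. The points share their arrays and the strong early response to the wound, so r is given as a description. G protein-coupled receptor kinase 4, a kinase that phosphorylates activated receptors, was the most alike (r = 0.967). Its group mean went from -2.21 in HFD intact skin to -0.51 at 1 dpw and -0.19 at 3 dpw, and in control from -2.54 to -0.61 and -1.35. Ras-related protein Rab-37, a small GTPase of secretory vesicles, followed with r = 0.946, and ornithine decarboxylase 1, the first enzyme of polyamine synthesis, with r = 0.943. The other 7 of the 10 most alike have no name in the table used here, with Ssa#GRASP223649079 first among them (r = 0.959).

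Likeness was also measured within groups. After each group's mean was subtracted, CCAAT/enhancer-binding protein beta, a transcription factor of inflammatory and epidermal genes, had the highest r over the 78 fish (r = 0.786), and a second probe named CCAAT/enhancer binding protein beta2 had r = 0.785. D-aspartate oxidase, which degrades acidic D-amino acids, had r = 0.768. The group mean of CCAAT/enhancer-binding protein beta was 4.77 in HFD and 3.74 in control at 3 dpw, 3.79 and 2.50 at 7 dpw, and 0.68 and 0.49 in intact skin. The median r over all probes in this within-group comparison was -0.04. The 3 probes that ran most against LINCR over the 16 means, with Ssa#S18891161 the lowest (r = -0.931), have no name in the table used here.

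**Figure D3:**
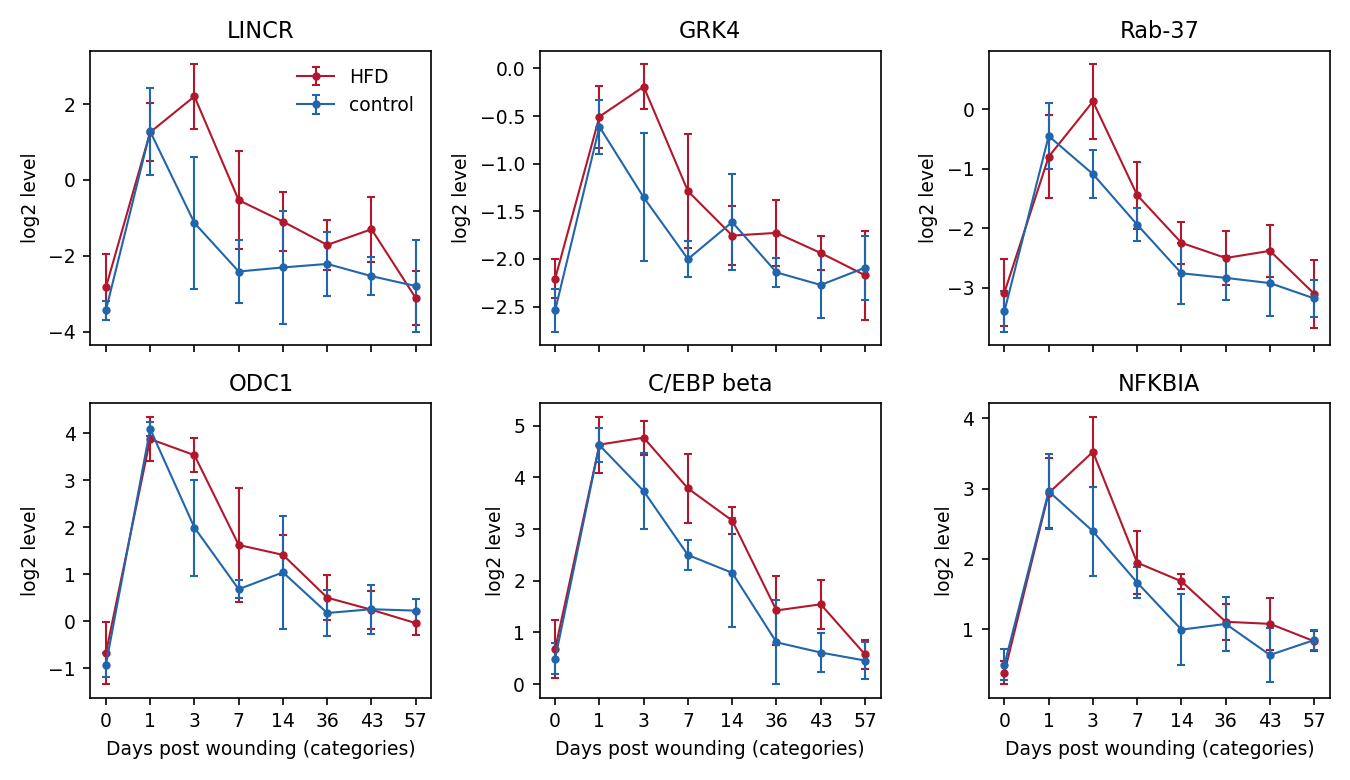
Group means ± SD (log2 level, n = 5, and 4 for intact skin) by days post wounding in HFD (red) and control (blue) for LINCR and 5 probes with similar profiles, each on its own vertical axis: G protein-coupled receptor kinase 4, Rab-37, ornithine decarboxylase 1, CCAAT/enhancer-binding protein beta and NF-kappa-B inhibitor alpha. In all 6 panels the HFD mean at 3 dpw lies above the control mean. CCAAT/enhancer-binding protein beta was picked for its r to LINCR within groups, after group means were subtracted. The other shown probes were picked for r over means that include the 3 dpw groups, so their shared direction is largely set by the choice.

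LINCR was then read beside the other ubiquitin genes that the study named. The study drew its list from differences between HFD and control on these same arrays, so counts within it are not independent evidence. At 3 dpw 3 of the other 11 members passed the study's criteria upwards and 2 downwards, where 3.39% and 2.99% of all tested probes did. Those higher in HFD were F-box only protein 41, a substrate receptor of cullin ligases (1.73), ubiquitin protein ligase E3A (1.31) and the RING finger ligase read by probe Ssa#KSS4306 (1.08). The last 2 are also members of the interferon list. Those lower were the ubiquitin-conjugating enzymes E2 C (-0.90), which serves the anaphase-promoting complex, and E2 T (-0.88), which serves DNA repair. The median difference of the 11 was 0.09, beside -0.05 over all tested probes.

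At 7 and 14 dpw none of the 11 met the criteria by limma, while 2 of them had an unadjusted p under 0.05 without reaching the fold: ubiquitin-conjugating enzyme E2G 1 at 7 dpw (0.41, adjusted p = 0.123) and E2 C at 14 dpw (0.68, adjusted p = 0.196). Of all tested probes, 1.57% met the criteria upwards and 2.76% downwards at 7 dpw, and 2.24% and 2.03% at 14 dpw. With an adjusted p under 0.05 and the fold together, 0.0842% of all probes were called at 7 dpw and 0.0546% at 14 dpw. The same share was 0.158% at 43 dpw. The one member with an adjusted p under 0.05 between the densities at any day was E3 ubiquitin-protein ligase TRIM23, at 43 dpw. TRIM23, a ligase with an ADP-ribosylation factor domain, had levels of -1.16, -1.04, -0.70, -0.32 and -0.43 in HFD fish and -4.72, -3.84, -3.56, -3.80 and -3.43 in control fish. All HFD fish lay above all control fish, as in 1.03% of the probes of that day. Its HFD mean was 3.14 above the control mean (log2, SE 0.27), with an adjusted p of 0.00101 by limma. At 3 dpw the difference was 0.01. Within some groups of other days the fish lay far apart. At 3 dpw TRIM23 ran from -3.27 to -0.34 in HFD fish and from -2.97 to -0.74 in control fish. At 36 dpw control fish ran from -4.74 to -0.92, and at 57 dpw HFD fish ran from -3.33 to -0.45. The cause of this spread between fish was not tested.

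**Figure D4:**
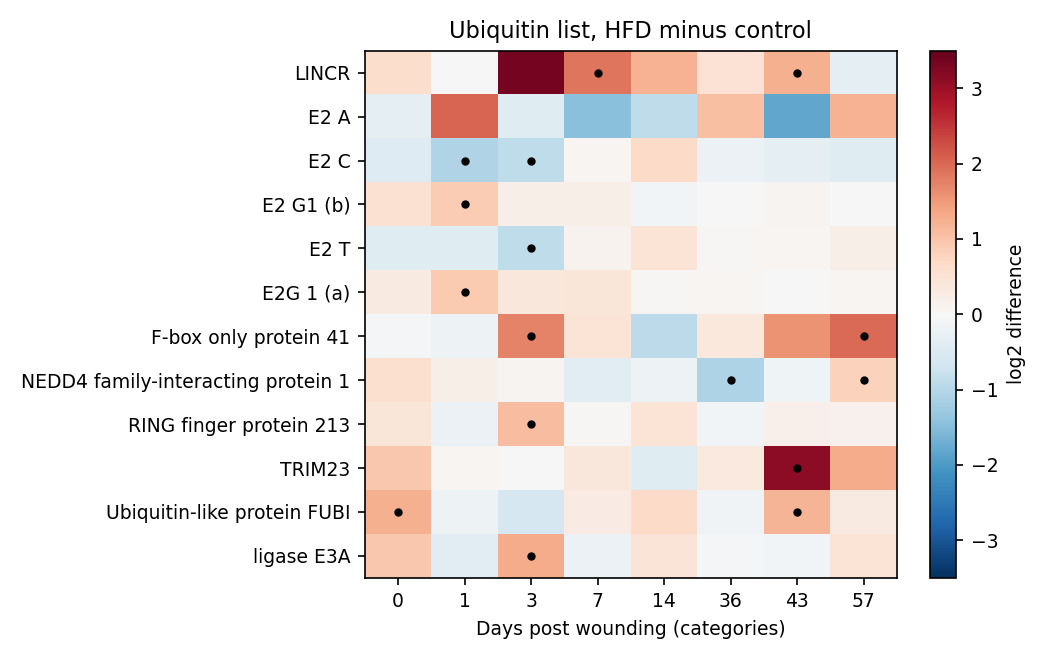
Colour gives the HFD minus control difference (log2) of the 12 ubiquitin list members at each day, and a black dot marks the study's criteria, with LINCR at 3 dpw left unmarked because that contrast chose it. E2G 1 (a) and E2 G1 (b) are separate probes. LINCR stands at 3.34 at 3 dpw and TRIM23 at 3.14 at 43 dpw.

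Against intact skin the ubiquitin list moved in both directions. At 1 dpw E2 C fell by 1.88 in HFD (adjusted p = 0.00257) and by 1.28 in control (adjusted p = 0.00919), and at 7 dpw it was 1.33 and 0.80 above intact skin (adjusted p = 0.00227 and 0.0374, limma). Of the other 11 members, 0 were called higher and 2 lower in HFD at 1 dpw, and 1 was called higher and 2 lower in control. Of all probes, 12.1% were called higher and 21.3% lower in HFD, and 18.6% and 24.4% in control.

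The NF-kappa-B and TNF genes were also drawn from the study's list, selected on these arrays, so their counts are not independent evidence. Among the 10 probes of that list, 7 were called higher in the wound at 1 dpw in each density and 2 lower. Those lower included Nxf1 (-2.43 in HFD and -1.78 in control), a carrier of messenger RNA export and not itself an NF-kappa-B or TNF gene. Of all probes, 12.1% in HFD and 18.6% in control were called higher, and 21.3% and 24.4% lower. The medians of the 10 were 1.20 in HFD and 1.65 in control beside -0.30 and -0.14 over all tested probes. NF-kappa-B inhibitor alpha, which holds NF-kappa-B in the cytoplasm, had the highest r to LINCR of that list (r = 0.942), and its HFD minus control difference was 1.13 at 3 dpw, 0.28 at 7 dpw and 0.69 at 14 dpw. The NF-kappa-B p100 subunit, precursor of a non-canonical NF-kappa-B protein, had r = 0.919 and differences of 1.37, 0.33 and 0.41. For both probes only the 3 dpw difference met the study's criteria. Nxf1 had the lowest r of the list (-0.818).

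The cytokine and interferon lists, like the ubiquitin and NF-kappa-B lists, hold probes that the study selected on these arrays. Of 25 cytokine and chemokine probes, 8 were called higher and 6 lower in HFD at 3 dpw, where 3.39% and 2.99% of all probes were, and 7 higher and 11 lower at 7 dpw, where 1.57% and 2.76% were. An IL-6 subfamily member, M17 (r = 0.904), and interleukin-1 beta (r = 0.892), both inflammatory cytokines, had the highest r to LINCR, and were 1.45 and 1.49 higher in HFD at 7 dpw. Interleukin-1 beta was well above background in 41 of 78 fish and M17 in 50, so their levels in intact and late skin are at the limit of detection. C-C motif chemokine 20, which attracts lymphocytes and dendritic cells, had the lowest r (-0.898) and was 3.57 lower in HFD at 7 dpw, with 4 of the 5 HFD fish well above background.

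Of 38 interferon and virus response probes, 26 were called higher and 1 lower in HFD at 3 dpw, beside 3.39% and 2.99% of all probes, and 3 higher and 2 lower at 7 dpw, beside 1.57% and 2.76%. Their median difference was 1.12 at 3 dpw and -0.07 at 7 dpw, while LINCR stood at 1.88 at 7 dpw. Cholesterol 25-hydroxylase-like protein A, an enzyme whose product is antiviral in mammals, had the highest r to LINCR (r = 0.855), with apolipoprotein-L3 second (r = 0.674). Gelsolin, which severs actin filaments, had the lowest (r = -0.835).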

How the data were processed

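Total RNA of salmon skin was labelled with Cy3 and hybridised to a 15k one-colour array (the labels name an RNeasy kit and the methods a PureLink kit). The authors deposited scanner output of 79 arrays with 15377 spots each (Feature Extraction 12.0.1.1), in which the processed signal is a background-subtracted intensity without normalization across arrays. A second deposited file holds intensity values that the authors had scaled per array. Control spots and outlier spots were left out, and log2 processed signals were centred on each array's 75th percentile.

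Fish were grouped by the labels, and each p measures the spread between fish of 1 tank per density. limma 3.58.1 (R 4.3.3) was run on all probes that passed a filter on dim signals, per comparison, with Benjamini-Hochberg adjustment, and exact permutation tests were run for LINCR alone. The fits were tested on simulated data. LINCR, the gene lists and the tests were chosen with earlier results of these data known, and the lists hold probes that the study selected on these arrays. Named genes were LINCR, the 10 probes with the highest and 3 with the lowest r over the 16 group means, the 5 with the highest r within groups, every ubiquitin list member, and 2 highest and 1 lowest of every other list. Alternatives were quantile normalization, normexp with an offset of 50, the authors' scaled table, other filters, slide or replicate blocks, pooled intact skin, 1 fit over all groups and leaving out each fish. The number of arrays limits the precision. Names came from the study's list (771 probes). No sequence of the probe was used here.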

Additional observations from a re-analysis of the deposited data

How the results depend on the processing

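Of 286 alternative values other than leaving out a fish, 250 kept the direction and side of the threshold. At 3 dpw, which had no test, a value counted as kept if it moved by less than the larger group SD. The control wound difference of that day, 2.30 in the main fit, ranged from 1.06 to 2.68. The HFD minus control difference at 7 dpw was 3.14 with slide as a block (no call), which rests on the pair of the single shared slide. That at 43 dpw was 0.62 with normexp, 1.24 with all groups in 1 fit and 1.13 with slide as a block, each without a call. Fish numbers mark different fish, and of 35 same-numbered pairs 9 correlated over 0.1 (range -0.59 to 0.38). With the number as a replicate block, the 14 dpw difference of 1.21 was called, and against intact HFD skin 2.31 at 7 dpw and 1.79 at 43 dpw lost the call while 1.14 at 36 dpw gained it.

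Against intact HFD skin, 3 dpw gave 3.91 with normexp, and 14 dpw gave 0.26 with slide as a block, from the single shared slide. At 36 dpw the call was gained with quantile normalization (1.53), the authors' table (2.14) and pooled intact skin (1.42). The exact permutation test of that day (1.12) gave p = 0.0317 without correction over probes, beside an unadjusted limma p of 0.0312. At 43 dpw the call was lost with all groups in 1 fit (1.53) and slide as a random block (1.54). At 57 dpw the sign turned with quantile normalization (0.18), the authors' table (0.95) and pooled intact skin (0.019). The authors' table moved the median of all probes to 0.97 from -0.20 at 57 dpw, and to 0.99 from -0.23 at 36 dpw. The cause of the other changes was not tested.

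Against intact control skin, slide as a block gave 4.94 at 1 dpw without a call, from the single shared slide. At 7 dpw normexp turned the sign (-0.051). The exact permutation test of that day gave p = 0.0476 without correction over probes, beside an unadjusted limma p of 0.0272. Quantile normalization (1.24), the authors' table (1.58) and probes well above background on every array (1.02) gained the call. At 36 dpw it was lost with normexp (0.29), no filter (1.22), all groups in 1 fit (1.22), slide as a random block (1.22) and pooled intact skin (0.92). At 43 dpw it was lost with normexp (0.41), all groups (0.90), random slide block (0.88) and pooled intact skin (0.60). At 57 dpw the authors' table gave 1.74 and gained the call. That table moved the median of all probes to 0.87 from -0.19 at 57 dpw, and to 0.43 from -0.12 at 7 dpw. The difference between responses at 36 dpw turned to 0.22 with normexp.

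Leaving out 1 fish gave HFD minus control ranges of 0.39 to 1.01 at 0 dpw, -0.48 to 0.31 at 1 dpw, 1.59 to 2.36 at 7 dpw, 0.91 to 1.84 at 14 dpw, 0.22 to 0.77 at 36 dpw, 0.93 to 1.49 at 43 dpw and -0.65 to 0.17 at 57 dpw. For HFD wounds it gave 1.89 to 2.78 at 7 dpw and 1.13 to 1.79 at 43 dpw, for control wounds 0.73 to 1.30 at 7 dpw, 0.95 to 1.5 at 36 dpw and 0.74 to 1.06 at 43 dpw, and for uncalled values 0.72 to 1.33 (HFD, 36 dpw), -0.69 to -0.07 (HFD, 57 dpw), 0.50 to 1.37 (control, 14 dpw) and 0.15 to 0.97 (control, 57 dpw). The difference between responses ranged from -1.08 to -0.30 at 1 dpw, 0.87 to 1.76 at 7 dpw, 0.20 to 1.23 at 14 dpw, -0.50 to 0.17 at 36 dpw, 0.23 to 0.89 at 43 dpw and -1.32 to -0.43 at 57 dpw. Of the 10 probes most like LINCR, 8 remained among the 10 with quantile normalization, 6 with r over 78 fish and 3 with Spearman's rho over the 16 means.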

Other observations

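In the authors' scaled table, 71 of 79 columns correlated best with the scan of their own array. The other 8, all of 1 dpw, correlated best with the scan of another fish of the same group (r from 0.9997 to 0.9998, against 0.9496 to 0.9876 with their own, over 8362 probes). Group means at 1 dpw do not change with this, and the fish numbers of 1 dpw given for LINCR are those of the scans.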
